A study of Mus musculus with 7 samples.

Results

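The insulin-like growth factor (IGF) axis was followed through 10 genes, Igf1, Igf2, Igf1r, Igf2r, Igfbp2, Igfbp3, Igfbp4, Igfbp5, Igfbp6 and Igfbp7, in mouse basal cell carcinoma. Its members are the 28 probe sets of a single-channel Affymetrix array that the platform annotation assigns to exactly 1 of these genes, out of 45037 probe sets without the array's controls. Dissected basal cell carcinoma was hybridised to 2 arrays and normal epidermis of newborn (P0) mice to another 2. The remaining 3 arrays held PDKC1, a cell line from mouse basal cell carcinoma, without treatment (0 h) and at 6 h and 10 h of cyclopamine, a plant compound that inhibits Smoothened, the transducer of the Hedgehog signal. The sources used here do not give strain, genotype or age of the tumour-bearing mice, nor the dose of cyclopamine. The epidermis was newborn, so age and carcinoma cannot be told apart in any difference between the tissues. PDKC1 is a single line with 1 array per time.

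IGF1 and IGF2 are secreted ligands that signal through the tyrosine kinase receptor IGF1R, while IGF2R takes IGF2 up and sends it to the lysosome. The IGF binding proteins carry the ligands outside the cell and hold them back from the receptor or release them near it. In skin, IGF1 is known mainly as a product of dermal mesenchymal cells that acts on receptor-bearing keratinocytes, and Igf2 is an imprinted gene of fetal growth whose expression falls in most mouse tissues after birth.

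The arrays were set against markers of their labelled tissues. Of 7 basal keratinocyte markers 0 were higher and 1, Krt14, was lower in tumour. Krt5 was bright on every array, while Krt15 was at 957.0, 1147 and 1203 in PDKC1 and at 13433.7 or more on each tissue array. Of 6 suprabasal markers 5 were lower in tumour. Over all genes, each by its brightest probe set, 16.2% were higher and 12.3% lower. Gli1, a direct Hedgehog target, was at 2192 and 1933 in tumour and 190.2 and 292.9 in epidermis. In PDKC1, Gli1 was at 841.9, 193.2 and 189.6 at 0 h, 6 h and 10 h. The 3' to 5' signal ratio of the Actb control probe sets, a sign of RNA quality, was 11.3 and 93.1 in tumour, 3.98 and 2.84 in epidermis and 1.15 to 1.21 in PDKC1. Labelling started from 100 ng of RNA for the tissues and 2000 ng for PDKC1. The labels do not say if replicates were separate animals: p-values then cover only the scatter among these arrays, which may be technical, and precision is limited by their number.

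Promoter windows are shown for Igf2, Igf1 and Igfbp7, because by brightest probe set these 3 genes had the largest differences between tumour and epidermis. The windows run from 250 bases before to 50 after a transcription start and come from RefSeq (GRCm38.p6), where all 10 genes had at least 1 and 14 windows in all. For Igf2, which has 4 windows, the window with the most CpG dinucleotides is given. Capitals mark GC boxes (GGGCGG on either strand), the letters bound by SP1-type factors.
Igf2, chr7:142658755-142659054, minus strand: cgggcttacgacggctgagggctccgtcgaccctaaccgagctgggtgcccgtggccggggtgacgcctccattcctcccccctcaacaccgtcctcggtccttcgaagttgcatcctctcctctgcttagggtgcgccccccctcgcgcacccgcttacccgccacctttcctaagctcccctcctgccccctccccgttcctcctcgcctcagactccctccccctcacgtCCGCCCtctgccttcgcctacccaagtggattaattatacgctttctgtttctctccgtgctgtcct
Igf1, chr10:87860861-87861160, plus strand: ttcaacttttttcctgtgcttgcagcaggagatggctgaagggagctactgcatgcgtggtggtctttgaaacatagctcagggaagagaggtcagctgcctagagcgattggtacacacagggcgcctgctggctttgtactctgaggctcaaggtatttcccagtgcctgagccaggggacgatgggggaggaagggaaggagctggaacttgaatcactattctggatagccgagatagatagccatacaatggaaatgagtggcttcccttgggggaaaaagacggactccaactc
Igfbp7, chr5:77407996-77408295, minus strand: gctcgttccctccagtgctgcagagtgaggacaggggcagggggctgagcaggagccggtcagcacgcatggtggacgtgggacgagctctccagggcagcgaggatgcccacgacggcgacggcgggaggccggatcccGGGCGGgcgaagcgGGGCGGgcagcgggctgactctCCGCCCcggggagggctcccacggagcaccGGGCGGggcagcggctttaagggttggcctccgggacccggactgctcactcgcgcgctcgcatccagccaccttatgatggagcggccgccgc
The Igf2 window held 24 CpG and 1 GC box, the Igf1 window 6 CpG and 0 GC boxes, and the Igfbp7 window 33 CpG and 4 GC boxes. Over the 14 windows of the axis 6 held a GC box, which 35.7% of all 32851 windows in the table hold. The GLI consensus GACCACCCA (either strand) was in 0 of the 14 windows and in 0.253% of all windows. Its last 7 letters, CCACCCA, were in 0 of 14 and in 9.30% of all, a share that includes the windows with the full consensus. These counts describe letters within the windows only.

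Tumour and newborn epidermis differed in most of the axis. By limma on log2(intensity + 16), with Benjamini-Hochberg adjustment over all probe sets and calls at an adjusted p under 0.05, 18 of the 28 probe sets were higher in tumour and 2 were lower. Without epidermis array 1 the higher count was 11, and without epidermis array 2 the lower count was 1. Over all 45037 probe sets 18.3% were called higher and 9.17% lower. By the brightest probe set of each gene, Igf1, Igf1r, Igf2r, Igfbp3, Igfbp4, Igfbp5 and Igfbp7 were higher, Igf2 and Igfbp2 were lower, and Igfbp6 was not called; over the brightest probe sets of all 18193 genes 16.2% were called higher and 12.3% lower. Both tumour arrays lay over both epidermis arrays for 19 of the 28 probe sets (38.4% of all probe sets) and under both for 3 (25.0% of all). The median log2 difference was 1.66 over the 28 and 0.19 over all probe sets. Quantile normalization moved the median of all probe sets by -0.30 and centring each array on its median moved it by -0.64, so differences near these sizes depend on the scaling. In tissue arrays, fewer cells of a type and less RNA per cell cannot be told apart.

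**Figure D1:**
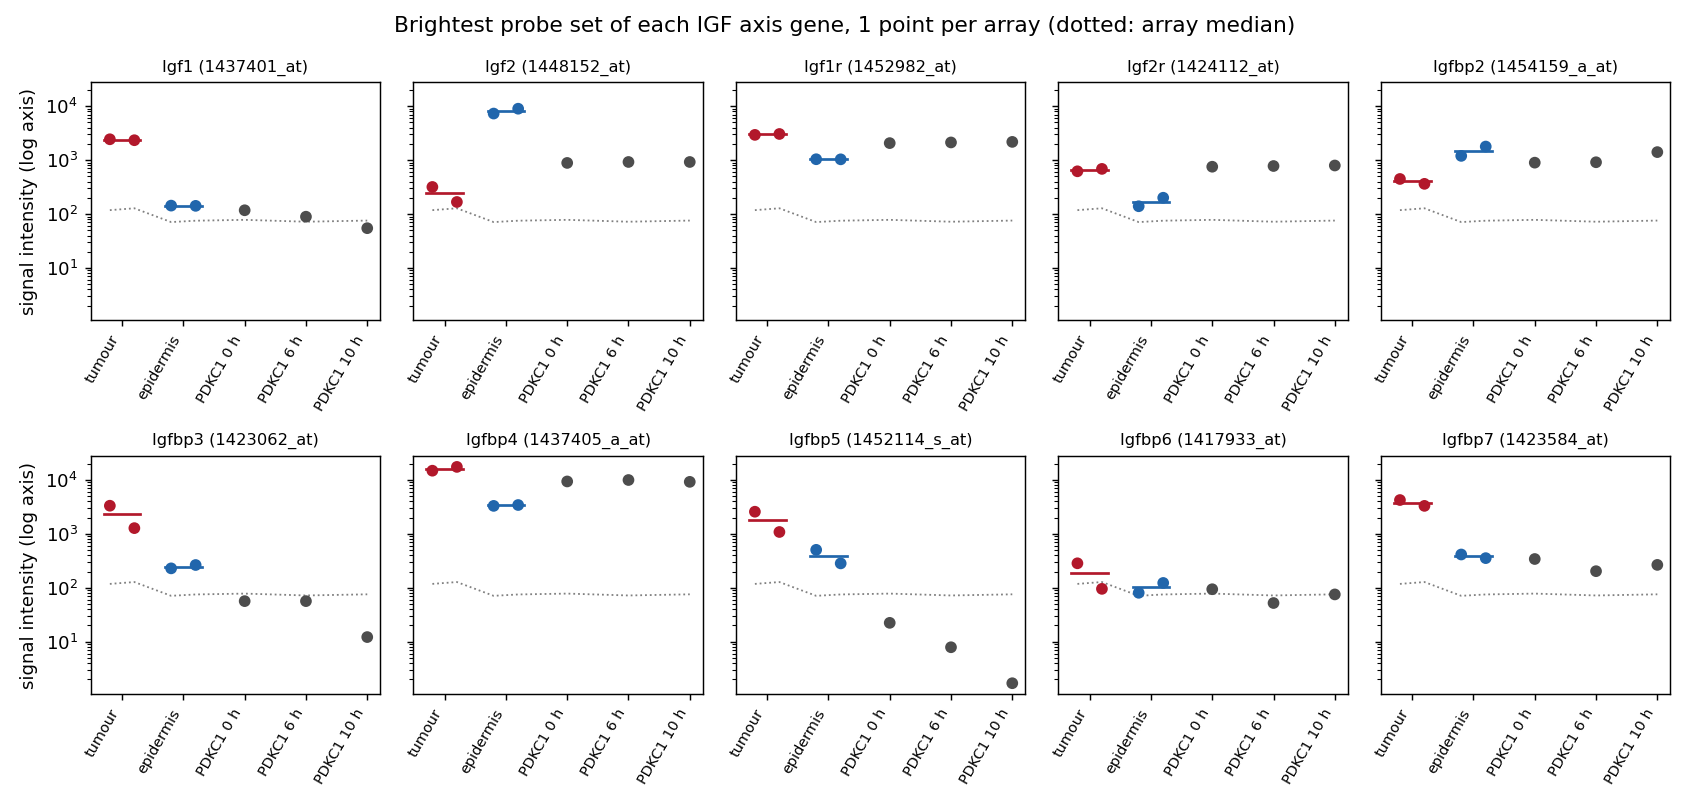
Signal intensity (log axis) of the brightest probe set of each IGF axis gene, 1 point per array, with lines at the tumour and epidermis means and a dotted line at each array's median probe set. Igf1, Igfbp3 and Igfbp7 stood high in tumour alone, Igf2 stood at 7307 and 8986 in epidermis, and in PDKC1 Igf1r and Igfbp4 lay between the tissues and Igf2r over both.

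The ligands moved in opposite directions. Igf1 had intensities of 2438 and 2341 in tumour, against 143.4 and 142.0 in epidermis, by its brightest probe set (1437401_at). The tumour arrays agreed closely and lay far above the epidermis arrays, a 15.2-fold difference (log2 difference 3.92 ± 0.25, SE, 2 arrays per tissue; adjusted p = 0.000346 by limma). All 4 Igf1 probe sets were called higher, with log2 differences between 3.06 and 4.14. The smallest, 1452014_a_at, had 452.4 and 242.2 in tumour against 11.0 and 48.8 in epidermis, and it was not called without epidermis array 1 (2.42, adjusted p = 0.0592). In PDKC1 the brightest probe set gave 117.6, 89.3 and 54.7 at 0 h, 6 h and 10 h, under every tissue array, as was 1434413_at. The other Igf1 probe sets did not place PDKC1 under epidermis. In PDKC1 1452014_a_at gave 159.5, 107.9 and 96.6, over both epidermis arrays and under both tumour arrays. For 1419519_at PDKC1 gave 91.2, 89.4 and 48.1, against 60.2 and 60.1 in epidermis.

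Igf2 had 318.1 and 167.5 in tumour, against 7307 and 8986 in epidermis (1448152_at). The groups did not overlap, and Igf2 was 32.8-fold lower in tumour (log2 difference -5.04 ± 0.32, adjusted p = 0.000350 by limma), the largest difference of the axis by brightest probe set. In PDKC1 the same probe set gave 887.5, 924.5 and 924.0, between tumour and epidermis. The second Igf2 probe set, 1415931_at, lay under the median probe set of all 7 arrays, with 12.1 and 16.6 in tumour and 20.1 and 19.7 in epidermis, and was not called (-0.25, adjusted p = 0.723). Averaging both probe sets of Igf2 gave -2.64, still called.

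Both receptors were higher in tumour. Igf1r, the signalling receptor, had 2940 and 3055 in tumour, against 1039 and 1035 in epidermis (1452982_at). These pairs were tight and apart (1.52 ± 0.21, adjusted p = 0.00227 by limma). Without epidermis array 1 or 2 the difference was 1.52 or 1.51 and no longer called (adjusted p = 0.0580 and 0.0542). After median centring of the arrays the difference was 0.88. PDKC1 gave 2069, 2128 and 2180, between the tissues.

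The 5 Igf1r probe sets disagreed. The probe set 1428967_at differed by 1.56 ± 0.26, lost its call without epidermis array 1 (adjusted p = 0.0933), and came to 0.92 after centring. The probe set 1446303_at had 771.8 and 1452 in tumour against 51.4 and 44.8 in epidermis, a larger difference of 4.07 ± 0.40 (adjusted p = 0.000726 by limma). For 1426565_at the tissues overlapped, at 192.4 and 169.9 in tumour and 169.3 and 218.1 in epidermis (-0.08, adjusted p = 0.903), while PDKC1 was higher than either tissue, at 589.3, 669.5 and 579.7. The dim 1452108_at, under the array median throughout, was also not called (0.72, adjusted p = 0.524).

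Igf2r, the clearance receptor, had 620.8 and 688.0 in tumour, against 139.6 and 200.7 in epidermis (1424112_at; 1.87 ± 0.32, adjusted p = 0.00492 by limma), a difference that centring lowered to 1.23. PDKC1 gave 754.8, 778.0 and 795.5, over all 4 tissue arrays. Its other probe set, 1424111_at, had 406.4 and 358.2 in tumour and 126.8 and 185.5 in epidermis (1.23 ± 0.35, adjusted p = 0.0365). This smaller difference was not called under quantile normalization (0.56, adjusted p = 0.280), under centring (0.59, adjusted p = 0.235), without a variance trend (0.0594), without tumour 1 (0.0663), and without epidermis array 1 (0.273) or 2 (0.122). Without epidermis array 1 the brighter probe set was not called either (adjusted p = 0.0747).

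**Figure D2:**
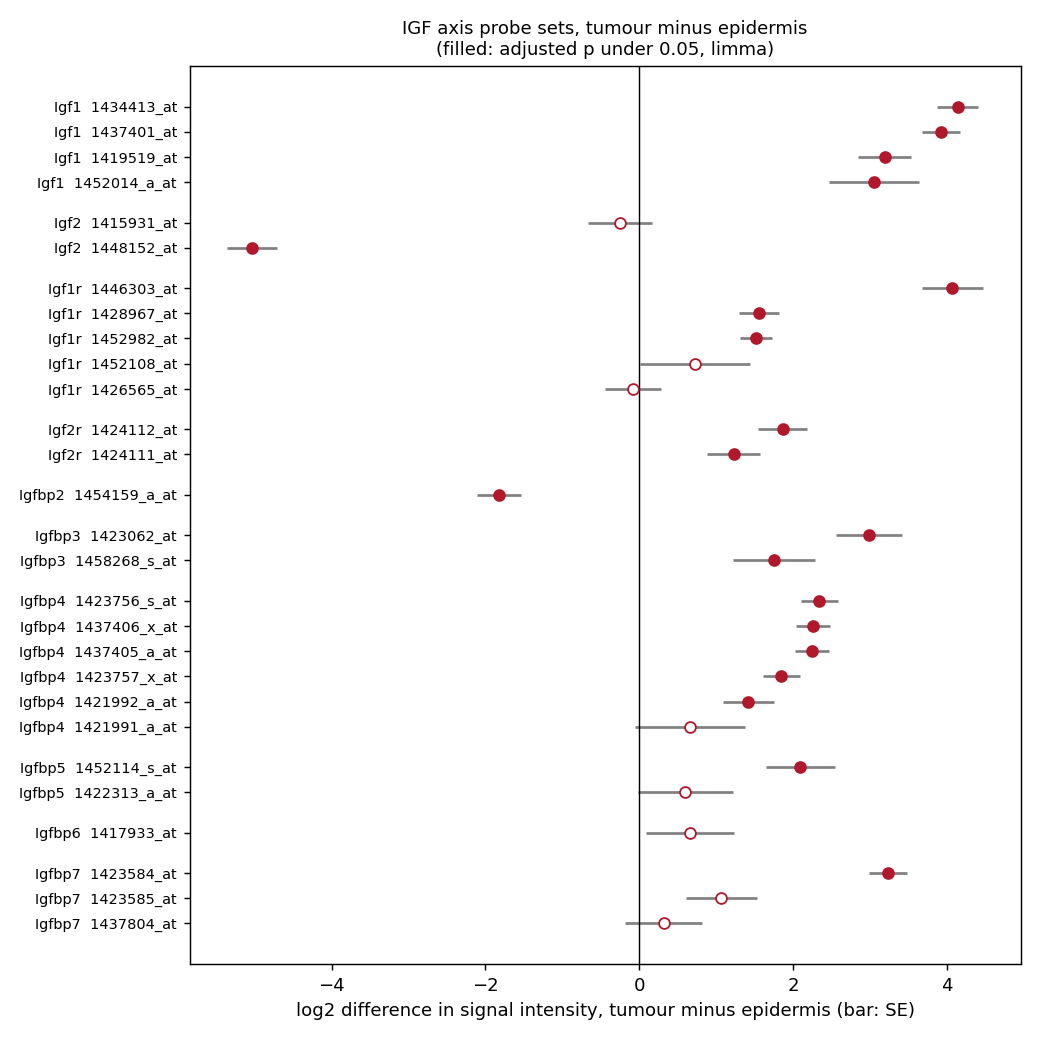
Log2 difference in signal intensity, tumour minus epidermis, with its SE for each of the 28 IGF axis probe sets, filled where the adjusted p was under 0.05. The filled points lie between 1.23 and 4.14 to the right of 0 except for Igf2 at -5.04 and Igfbp2 at -1.82.

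Among the binding proteins, Igfbp7, Igfbp3, Igfbp4 and Igfbp5 were higher in tumour and Igfbp2 was lower. Igfbp7, a secreted relative of low IGF affinity that is typical of vessels and matrix, had 4244 and 3307 in tumour, against 414.7 and 355.1 in epidermis (1423584_at; 3.23 ± 0.24, adjusted p = 0.000434 by limma). PDKC1 gave 342.1, 203.4 and 266.1, under every tissue array. The 2 dimmer Igfbp7 probe sets were not called (1.07, adjusted p = 0.133, and 0.32, adjusted p = 0.708), and with the mean of all 3 the difference was 1.54, which was called.

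Igfbp3, the main carrier of IGF in serum, had 3329 and 1279 in tumour, against 229.4 and 264.7 in epidermis (1423062_at; 2.99 ± 0.43, adjusted p = 0.00266 by limma). The tumour arrays themselves differed by 1.37 on the log2 scale, tumour 1 being higher. The other Igfbp3 probe set, 1458268_s_at, had 801.7 and 254.3 in tumour and 132.0 and 115.3 in epidermis (1.75 ± 0.53, adjusted p = 0.0453). Its call was lost under quantile normalization (1.11, adjusted p = 0.243), centring (1.11, 0.166), a pseudocount of 64 (0.0598), no variance trend (0.0885), and without tumour 1 (0.96, 0.133) or either epidermis array (0.164 and 0.195).

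Igfbp4, a binding protein that mostly inhibits IGF and is cut by the protease PAPP-A, had 14854 and 17468 in tumour, against 3306 and 3431 in epidermis (1437405_a_at; 2.25 ± 0.22, adjusted p = 0.000738 by limma). In PDKC1 it gave 9385, 9981 and 9229, between the tissues. Of its 6 probe sets 5 were called higher, with differences of 1.42 to 2.34. The smallest of these, 1421992_a_at, was not called under quantile normalization (0.76, adjusted p = 0.148), centring (0.78, 0.125) or without either epidermis array (0.132 and 0.135), and 1423757_x_at came to 1.21 with centring.
The sixth, 1421991_a_at, had 6.3 and 83.0 in tumour and 10.6 and 17.0 in epidermis (0.67, adjusted p = 0.559), yet 743.4, 818.3 and 718.1 in PDKC1. Probe sets 1421992_a_at and 1423757_x_at were also brighter in PDKC1 than on any tissue array. The part of RNA quality in this disagreement was not tested.

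Igfbp5, a binding protein that adheres to matrix, had 2576 and 1084 in tumour, against 506.1 and 283.7 in epidermis (1452114_s_at; 2.09 ± 0.45, adjusted p = 0.0127 by limma). It was not called with arrays centred on their medians (1.45, adjusted p = 0.0582) or without epidermis array 2 (1.69, 0.112). The mean of both Igfbp5 probe sets gave 1.35, which was called. In PDKC1 the brighter probe set gave 22.4, 7.9 and 1.7, under the array median at every time. The other Igfbp5 probe set, 1422313_a_at, overlapped between tissues, at 77.3 and 287.8 in tumour and 108.3 and 83.2 in epidermis (0.60, adjusted p = 0.537), and its difference turned to -0.03 and -0.04 under quantile normalization and centring.

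Igfbp2, a binding protein abundant in fetal tissue, had 447.5 and 363.4 in tumour, against 1199 and 1787 in epidermis (1454159_a_at). It was 3.53-fold lower in tumour without overlap (-1.82 ± 0.29, adjusted p = 0.00373 by limma), though not called without epidermis array 2 (-1.53, adjusted p = 0.0761). PDKC1 gave 897.7 and 913.8 at 0 h and 6 h, between the tissues, and 1409 at 10 h, within the epidermis range. Igfbp2 and Igfbp5 are direct neighbours in the RefSeq annotation. By their brightest probe sets these adjacent genes differed in opposite directions between the tissues, while Igfbp5 1422313_a_at was not called.
Igfbp6, which prefers IGF2 as its ligand, had 284.8 and 95.6 in tumour and 80.8 and 123.1 in epidermis (1417933_at). The groups overlapped and it was not called (0.66 ± 0.57, adjusted p = 0.455 by limma), with a difference of -0.06 under quantile normalization.

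Markers of stromal and other cell types were read by the brightest probe set of each gene. Over all 18193 genes read in this way, 16.2% were called higher in tumour and 12.3% lower. Of 10 fibroblast and matrix genes 8 were called higher in tumour and 1 lower, and their summed intensity was 82871 and 105411 in tumour, against 21914 and 21454 in epidermis and 1632 to 1760 in PDKC1. The endothelial list (8 genes, 3 higher) summed to 1722 and 1356 in tumour, against 439.5 and 494.8 in epidermis. The pericyte and smooth muscle list (6 genes, 4 higher) summed to 5659 and 3636 in tumour, against 623.9 and 630.4 in epidermis. In PDKC1 the endothelial list summed to 310.1 to 418.3, and the smooth muscle list to 20329 to 23037, of which Acta2 gave 20040 to 22868.
The skeletal muscle list (8 genes, 4 higher) differed between the tumour arrays. Its sum was 15104 for tumour 1 and 3193 for tumour 2, against 285.9 and 316.3 in epidermis. The macrophage list (7 genes, 1 higher and 1 lower) summed to 10213 and 11520 in tumour, against 9114 and 7681 in epidermis, and to 1032 to 1102 in PDKC1. The adipocyte list (4 measured genes, 2 higher) summed to 881.6 and 483.3 in tumour, against 215.8 and 169.1 in epidermis. The part of these cell types in the IGF axis differences was not tested. Without tumour 1, the array with the higher muscle sum, the brightest probe sets of Igf1, Igf2 and Igfbp3 differed by 3.89, -5.47 and 2.30. Without tumour 2, whose Actb ratio was the higher, they differed by 3.95, -4.60 and 3.67. Each tumour array had a higher muscle sum and Actb ratio than both epidermis arrays. The part of muscle or RNA quality was not tested by leaving 1 of them out.

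All 3 PDKC1 arrays lay under all 4 tissue arrays for 6 of the 28 probe sets (16.8% of all probe sets), which belonged to Igf1, Igfbp3, Igfbp5 and Igfbp7. They lay over all 4 tissue arrays for 6 others (18.2% of all), of Igf1r, Igf2r and Igfbp4. All 7 genes were called higher in tumour by their brightest probe sets, which were not always the probe sets counted here. Of the latter, Igf1r 1426565_at, Igfbp4 1421991_a_at and Igfbp7 1423585_at were not called. The brightest probe sets of Igf1r and Igfbp4 lay between the tissues in PDKC1. Both shares stand near the background, and the arrays also differed in RNA input and in 3' to 5' ratio, so they are given as levels only. The 10 fibroblast and matrix genes ran from 6.9 for Pdgfra to 1051 for Fbln1 in PDKC1 at 0 h, and their median of 62.3 lay under the array's median probe set, at 78.1.

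Most of the axis stayed within 2-fold of untreated cells after cyclopamine, as did most of all probe sets read in the same way. A probe set was read where its brightest PDKC1 array lay over that array's median, which 21 of the 28 did. Folds were taken on intensity + 16, both times share the 0 h array, and with 1 array per time there is no test. At both times, 0 of the 21 were at least 2-fold higher and 0 at least 2-fold lower, against 1.21% and 1.08% of all 25111 probe sets over the same filter. The median log2 difference of the 21 was 0.03 at 6 h and -0.17 at 10 h, against -0.01 and 0.01 over all. Igf2 gave 1.04-fold at both times, Igf1r 1.03-fold and 1.05-fold, and Igf2r 1.03-fold and 1.05-fold by their brightest probe sets.

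**Figure D3:**
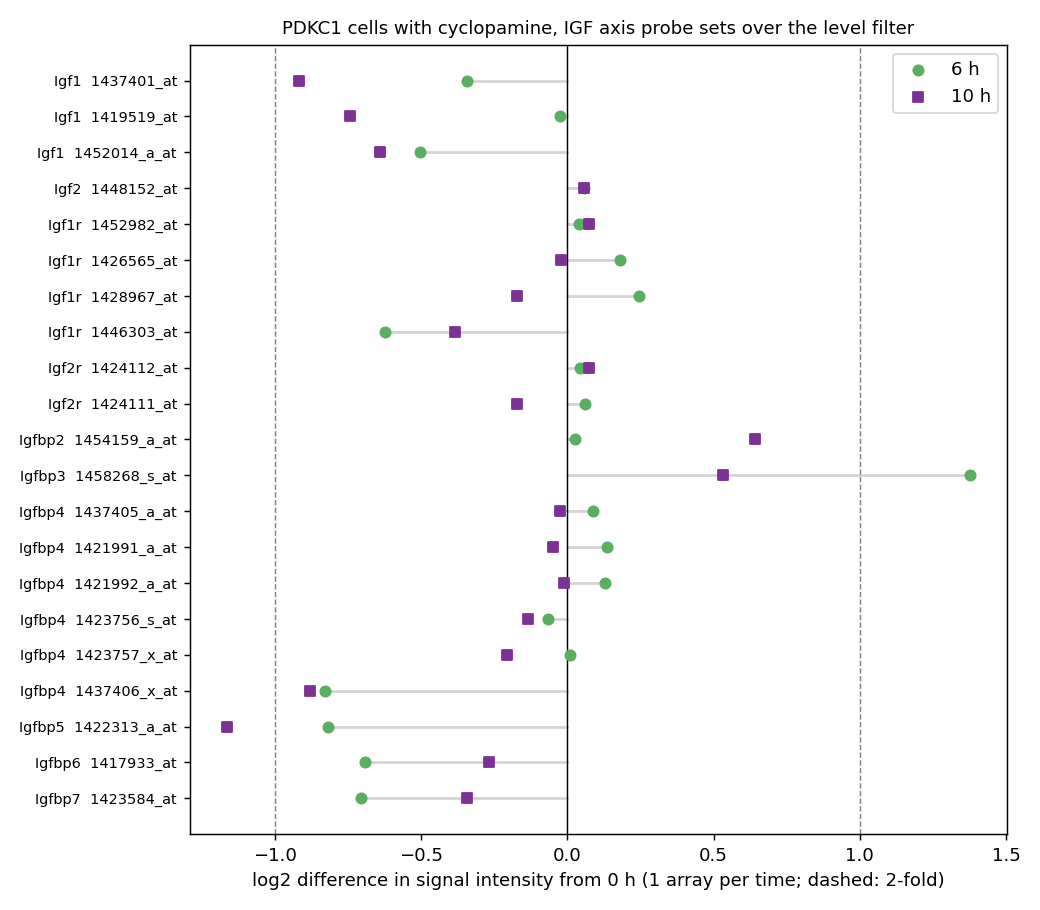
Log2 difference in signal intensity from 0 h at 6 h (circles) and 10 h (squares) of cyclopamine for the 21 IGF axis probe sets over the level filter, 1 array per time, with dashed lines at 2-fold. Igfbp3 1458268_s_at at 6 h and Igfbp5 1422313_a_at at 10 h are the points beyond the dashed lines.

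A few probe sets stood further from 0 h. Igfbp5 1422313_a_at gave 125.4, 64.2 and 47.1 at 0 h, 6 h and 10 h, which is 0.567-fold and 0.446-fold of untreated cells. It passed the level filter through the 0 h array alone and lay under the array median at 6 h and 10 h (72.1 and 75.7). At 10 h it was the 1 member at least 2-fold lower (3.02% of all), and 0 members were at least 2-fold higher (2.84% of all). At 6 h, 1 member, Igfbp3 1458268_s_at, was at least 2-fold higher (2.29% of all), and 0 were at least 2-fold lower (3.27% of all). Igfbp3 1458268_s_at gave 50.7, 157.2 and 80.5 over the 3 times. It lay under the array median at 0 h (78.1) and passed the level filter only through the treated arrays. The second Igfbp3 probe set, at 56.6, 56.6 and 12.2, lay under the array median at every time and was not read.
The 3 Igf1 probe sets over the filter were lower at 10 h, at 0.529-fold, 0.598-fold and 0.642-fold. At 6 h they were at 0.788-fold, 0.983-fold and 0.706-fold. All 3 were brightest at 0 h, and at 10 h 1437401_at and 1419519_at lay under the array median, at 54.7 and 48.1 against 75.7. They come from 1 gene and the same arrays, so they are not independent readings. The remaining Igf1 probe set, 1434413_at, lay under the array median at every time and was not read. Igfbp2 was at 1.02-fold and 1.56-fold. Igfbp7 was at 0.613-fold and 0.788-fold, and Igfbp6 at 0.619-fold and 0.830-fold. Igfbp6 gave 94.1, 52.2 and 75.4 over the 3 times. Its probe set passed the level filter through the 0 h array alone and lay under the array median at 6 h and 10 h.
Igfbp4 1437406_x_at stood apart from the other Igfbp4 probe sets, with 3840, 2155 and 2080 (0.563-fold and 0.544-fold), while the other 5 lay between 0.954-fold and 1.10-fold at 6 h and between 0.866-fold and 0.992-fold at 10 h. Affymetrix gives the suffix x to probe sets with probes that can match other transcripts. The other Igfbp4 probe set with this suffix, 1423757_x_at, was at 1.01-fold and 0.866-fold. The cause of the disagreement was not tested. At 1.5-fold in place of 2-fold, 2 members were lower at both times (3.28% of all), Igfbp4 1437406_x_at and Igfbp5 1422313_a_at, and 0 were higher (3.27% of all).

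Genes around the axis were read from 4 lists, each gene by its brightest probe set in the same fit. Of 9 genes of the insulin receptor family and its adaptors, 2 were higher and 1 lower, with a median log2 difference of 0.21, against 0.09 over the brightest probe sets of all genes. Grb14, an adaptor that inhibits insulin receptor signalling, had 1970 and 2587 in tumour, against 188.8 and 234.9 in epidermis (3.33 ± 0.27, adjusted p = 0.000490 by limma), and in PDKC1 it gave 113.1, 40.1 and 23.5, at least 2-fold lower at both times. The mean of its probe sets gave 1.88, also called. Insr, the insulin receptor, differed by 1.44 ± 0.28 and was not called with centring (0.79, adjusted p = 0.0662) or by the mean over probe sets (0.81, 0.165), nor without epidermis array 1 (0.115) or 2 (0.0814). Irs1, the docking protein of both receptors, differed by -0.80 ± 0.21 (adjusted p = 0.0289), a call lost under quantile normalization (0.174), without a variance trend (0.128), by the mean over probe sets (0.0552), with a replicate block (0.0537) and without epidermis array 1 (0.265) or 2 (0.261), and its value was -1.44 with centring. Without either epidermis array the list had 1 higher and 0 lower.

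Of 14 measured genes of the phosphoinositide 3-kinase (PI3K) and AKT arm, 4 were higher and 2 lower, with a median of -0.03. Tsc1, a brake on mTOR, differed by 2.32 ± 0.32 (adjusted p = 0.00223 by limma), with 987.1 and 1698 in tumour and 248.1 and 246.8 in epidermis. Pik3cb, a catalytic subunit, differed by -1.69 ± 0.28, and Pik3r1, a regulatory subunit, by 1.54 ± 0.22. Foxo1, a transcription factor that AKT keeps out of the nucleus, differed by 1.34 ± 0.28. Without epidermis array 1 the adjusted p was 0.0898 for Pik3cb, 0.0591 for Pik3r1 and 0.124 for Foxo1, and without array 2 it was 0.0519, 0.0534 and 0.102. Centring lowered Pik3r1 to 0.90 and Foxo1 to 0.70, which was not called (adjusted p = 0.0880), nor was Foxo1 without a variance trend (0.0575) or with the mean of probe sets (0.35, 0.296). With centring the list had 2 higher and 6 lower, without either epidermis array 1 higher and 0 lower, and without tumour 1 it had 4 higher and 5 lower.

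Of 6 genes of IGFBP proteases and their inhibitors 1 was higher, 0 were lower, and the median was 0.39. Pappa, which encodes the protease PAPP-A, had 420.5 and 720.2 in tumour, against 5.5 and 78.8 in epidermis (3.65 ± 0.71, adjusted p = 0.00861 by limma), and 63.0, 14.2 and 48.9 in PDKC1. The epidermis arrays lay far apart: the difference was 2.58 without epidermis array 1, 4.72 without array 2 and 2.63 with a pseudocount of 64, each called. Pappa RNA was higher on both tumour arrays, as was that of Igfbp4, whose protein PAPP-A cuts. In PDKC1 Pappa did not pass the level filter, while Igfbp4 (1437405_a_at) gave 9385, 9981 and 9229. Protein and its cleavage were not measured. Of 9 measured genes of IGF supply, mRNA binding and related carriers, 1 was higher and 2 were lower, with a median of 0.13. Ghr, the growth hormone receptor, had 9889 and 10661 in tumour, against 3936 and 3826 in epidermis (1.40 ± 0.21, adjusted p = 0.00322), and was not called without epidermis array 1 (0.0783) or 2 (0.0786); it was 0.76 with centring and 0.77 with the mean of probe sets.
Igf2bp3, an RNA-binding protein of fetal tissue that binds Igf2 mRNA, had 173.2 and 215.9 in tumour, against 1248 and 1357 in epidermis (-2.65 ± 0.27, adjusted p = 0.000804 by limma). Without either epidermis array the list had 0 higher and 1 lower. Igf2bp1, a relative of Igf2bp3, had 7.5 and 52.2 in tumour, against 169.0 and 138.4 in epidermis (-2.08 ± 0.63, adjusted p = 0.0459), and the value was -1.25 with a pseudocount of 64. That call was lost with a pseudocount of 4 (0.0567), without a variance trend (0.0547), without tumour 1 (-1.31) and without epidermis array 1 (0.193) or 2 (0.146). Igf2 was also lower in tumour, but the 3 genes differed in PDKC1. There Igf2bp1 gave 272.7, 294.4 and 298.5 at 0 h, 6 h and 10 h, over every tissue array. Igf2bp3 gave 155.0, 197.8 and 114.4, under both epidermis arrays, and Igf2 lay between the tissues. A link among these genes was not tested. Igfbp1, the RefSeq neighbour of Igfbp3, was dim, at 6.2 and 39.4 in tumour and 6.9 and 9.9 in epidermis (0.53, adjusted p = 0.523).

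**Figure D4:**
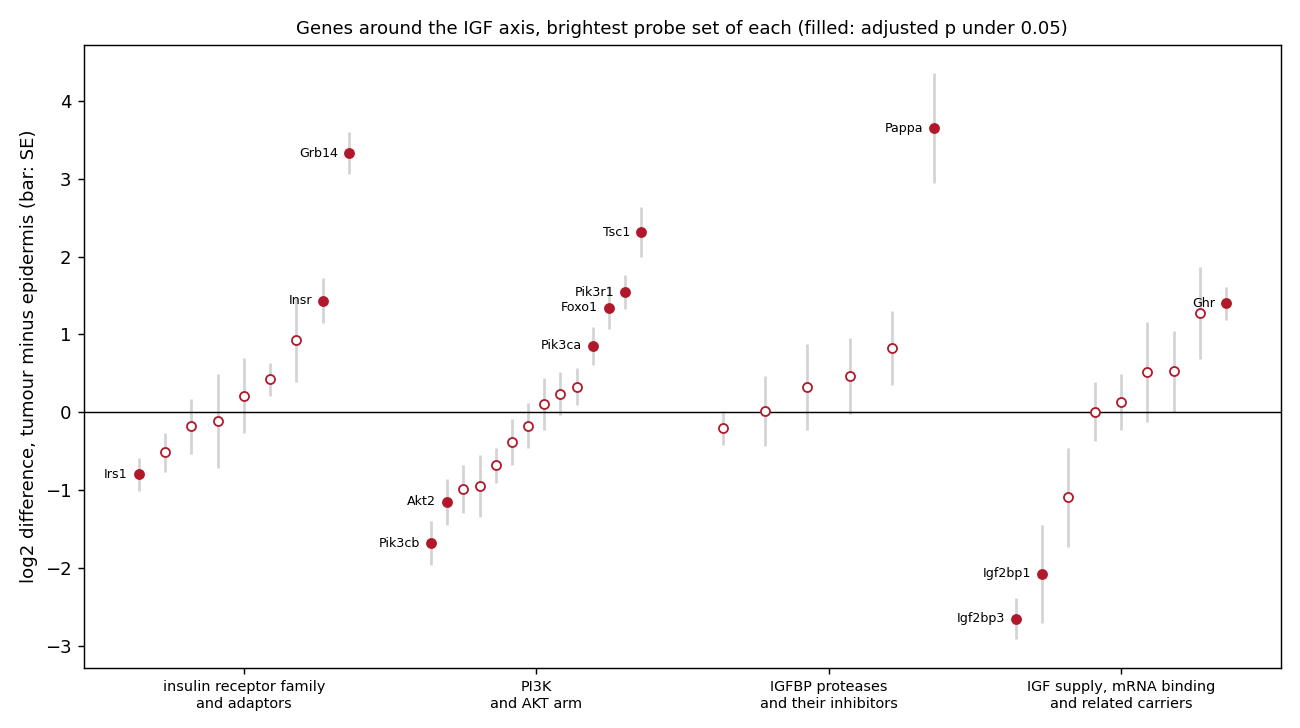
Log2 difference in signal intensity, tumour minus epidermis, with its SE for the genes of 4 lists around the IGF axis, each by its brightest probe set, filled and named where the adjusted p was under 0.05. Grb14 at 3.33 and Pappa at 3.65 lie highest, and Igf2bp3 at -2.65 lies lowest.

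In PDKC1 the level filter was passed by 7 genes of the receptor family and adaptors, 14 of the PI3K and AKT arm, 4 of the proteases and 6 of the supply list. Of these 1, Grb14, was at least 2-fold lower at both times, against 1.08% of all probe sets over the filter, and 0 were at least 2-fold higher, against 1.21%. Grb14 passed the filter through the 0 h array alone and lay under the array median at 6 h and 10 h. Over all measured genes, the lists' median log2 differences at 6 h and 10 h were -0.10 and -0.10 for the receptor family and adaptors, -0.04 and 0.04 for the PI3K and AKT arm, 0.04 and 0.07 for the proteases, and 0.0039 and -0.10 for the supply list.

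Genes whose log2 values over the 7 arrays were most like those of the 3 leading members were found by Pearson's r, given as a description. The 7 arrays fall into 3 sets, so r follows mostly the means of tumour, epidermis and PDKC1. For Igf2 they were Abhd17c (r = 0.998), Dpp3 (r = 0.998) and Cox19 (r = 0.997). For Igf1 they were Arhgap44 (r = 0.998), Ms4a2 (r = 0.997) and Cilp (r = 0.997), and for Igfbp7 they were Bgn (r = 0.997), Pdgfrb (r = 0.996) and Bmp6 (r = 0.995). Pdgfrb, which belongs to the fibroblast list, had 2116 and 1631 in tumour, against 67.8 and 47.6 in epidermis.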

How the data were processed

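The values deposited by the authors are linear intensity, 1 per probe set and array, for 7 arrays; the sources used here do not name the summarising software. Per the labels' protocols, RNA was labelled with biotin by Affymetrix's standard protocol. The mean of each array without its lowest and highest 2 percent was 500, which scaling each array as a whole would give, so no further normalization was applied. No array pair was identical. The 64 control probe sets were left out, and genes were named from the platform annotation, with symbols updated by Entrez identifier; 1 probe set assigned to Airn and Igf2r together was no member.

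Log2(intensity + 16) of the 4 tissue arrays was fitted by lmFit and trended eBayes (limma 3.58.1, R 4.3.3) over 45037 probe sets, without covariates. Tests were two-sided. The fit was tested on simulated data. The brightest probe set of a gene is that of highest mean log2 intensity across all 7 arrays. Every member was described, up to 4 called genes of each pathway list were named by size of difference, and other genes were named after their values were seen. The members and lists were chosen with earlier results of these data known. List genes without a probe set of their own were not analysed here. Alternatives changed 1 choice at a time.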

Additional observations from a re-analysis of the deposited data

How the results depend on the processing

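The counts of 18 higher and 2 lower probe sets were 15 and 2 under quantile normalization, 14 and 2 after median centring, 17 and 2 with a pseudocount of 64, and 16 and 2 without a variance trend. They were 18 and 2 with a pseudocount of 4, with dim probe sets left out, and with all 7 arrays in 1 fit. With 1 row per gene, by the brightest probe set or by the mean of probe sets, 7 of the 10 genes were higher and 2 lower. Leaving out each tissue array gave 11 to 18 higher and 1 to 2 lower; the 11 came without epidermis array 1 and the single lower call, Igf2, without epidermis array 2. The replicate numbers are not tied across tissues by any label, and the deviations of same-numbered arrays correlated at -0.000903; with a replicate block the counts were 18 and 2. The replicate block changed the call of Irs1 (adjusted p = 0.0537), gave 3 lower genes in place of 2 in the PI3K and AKT arm, and changed no call of a member. In PDKC1 the count of 0 members past 2-fold at both times was 2 at 1.5-fold, and 0 under both pseudocounts, without the level filter and under both normalizations.

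No member called in the comparison of tissues changed direction under any alternative run. Members that were not called did. Under quantile normalization Igfbp5 1422313_a_at was -0.033 and Igfbp6 was -0.064. With centring Igfbp5 1422313_a_at was -0.040 and Igfbp7 1437804_at was -0.32. Over the fits that left out an array, the difference ranged from -0.25 to 0.087 for Igf1r 1426565_at, from -0.093 to 1.54 for Igf1r 1452108_at, from -0.41 to 1.74 for Igfbp4 1421991_a_at, from -0.25 to 1.45 for Igfbp5 1422313_a_at, from -0.056 to 1.37 for Igfbp6, and from -0.14 to 0.77 for Igfbp7 1437804_at. The cause was not tested. With 2 arrays per tissue and 1 per time in PDKC1, small differences could not be resolved.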

Other observations

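The probe set assigned to Airn and Igf2r together, 1440979_at, lay over the array median at 6 h of cyclopamine alone, with 85.3 and 3.7 in tumour, 11.0 and 14.5 in epidermis, and 66.2, 76.7 and 15.6 in PDKC1 at 0 h, 6 h and 10 h. It was not called between the tissues (log2 difference 0.64 ± 0.75, adjusted p = 0.597 by limma).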
